A study of Mus musculus with 4 samples.

Results

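The 34 genes described here encode receptors for glutamate and GABA, the main excitatory and inhibitory transmitters of the brain, together with a glycine receptor subunit. They were chosen by name and gene family, with earlier results of these data known. They are 34 of the 21670 protein-coding genes on chromosomes 1 to 19 and X in the GENCODE M21 annotation of the mouse genome mm10. They comprise 3 AMPA receptor genes, 5 kainate receptor genes, 7 NMDA receptor genes, 7 metabotropic glutamate receptor genes, 11 GABA receptor genes (9 of GABA-A receptors and 2 of GABA-B receptors) and the glycine receptor gene Glra1. Other members of the glutamate and GABA receptor families were not analysed here.

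ChIP-seq, which sequences the DNA that an antibody pulls down with its target, had been done for PHF2 and for H3K9me2 in neural stem cells. The study comprised 4 groups of 1 sample, which were a PHF2 immunoprecipitation (antibody Cell Signaling D45A2), an H3K9me2 immunoprecipitation (Abcam ab1220), the input of PHF2 and the input of H3K9me2. All 4 came from WT C57BL/6J mice at E12.5, and the cells grew with EGF at 20 ng/ml and FGF at 10 ng/ml, so no genotype or treatment differs between them. The values are the positions of 5992 PHF2 peaks and 36111 H3K9me2 regions. The H3K9me2 list was cut at a p threshold whose test is not given. Its median region length of 73 bp equals the minimum in the list, so single regions are calls and not established sites. The inputs were not analysed here, the depth of the samples is unknown, and with 1 sample per target there is no spread between cultures and no test. All intervals below cover counting error only.

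As a check of the label, 9 of 10 neural progenitor markers had a PHF2 peak at a start, with scores from 709.63 (Pax6) to 2021.85 (Hes1), and Hes5 had none. Of 10 neuron markers, 2 had a peak, Map2 at 660.09 and Elavl4 at 107.83. None of 5 astrocyte markers had a peak. Of 6 oligodendrocyte markers, Olig1 (1609.26) and Olig2 (3100) had one, and the score of Olig2 exceeded that of every progenitor marker listed. Of all protein-coding genes, 29.1% had a peak at a start. Genes of like CpG content at their starts would give 4.95 progenitor, 3.16 neuron, 0.467 astrocyte and 1.79 oligodendrocyte markers with a peak. The neuron, astrocyte and oligodendrocyte counts thus lay near those numbers and do not bear on the label. Peaks mark binding and not expression, and the cell composition of the cultures was not tested.

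AMPA, kainate and NMDA receptors are tetrameric cation channels that glutamate opens, and metabotropic glutamate receptors act through G proteins. GABA-A receptors are pentameric chloride channels, and GABA-B receptors couple to G proteins. Most of these genes serve synapses of differentiated neurons, and some of them, GABA-A receptors among them, are also known to act in neural progenitors. PHF2 belongs to the JmjC histone demethylases and can bind H3K4me3, found at active promoters, through its PHD finger. It is known to demethylate H3K9me2, which is found in silent chromatin.

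Start sequences of 4 receptor genes show the range of CpG content among the members, and PHF2 was called at the first of them alone. They are the 250 bases before the RefSeq start on GRCm38.p6, read 5′ to 3′ on the gene's strand, with each CpG dinucleotide in capitals. Gria2 (chr3:80802836-80803085, minus strand) has 19 CpGs, Grik3 (chr4:125490446-125490695, plus strand) 42, Gabra5 (chr7:57510060-57510309, minus strand) 9 and Gabra6 (chr11:42321073-42321322, minus strand) 2. The Gria2 stretch lies within its PHF2 peak.
Gria2: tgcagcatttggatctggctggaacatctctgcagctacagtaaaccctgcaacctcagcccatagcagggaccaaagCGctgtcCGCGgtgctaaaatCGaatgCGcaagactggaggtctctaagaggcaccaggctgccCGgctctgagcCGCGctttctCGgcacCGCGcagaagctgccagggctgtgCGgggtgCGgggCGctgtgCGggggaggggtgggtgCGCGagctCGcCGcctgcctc
Grik3: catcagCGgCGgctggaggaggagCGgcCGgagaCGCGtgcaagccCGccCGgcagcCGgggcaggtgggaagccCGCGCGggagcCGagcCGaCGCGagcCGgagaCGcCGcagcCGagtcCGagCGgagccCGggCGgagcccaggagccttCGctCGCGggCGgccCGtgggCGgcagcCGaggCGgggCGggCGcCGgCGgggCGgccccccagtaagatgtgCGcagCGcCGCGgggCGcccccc
Gabra5: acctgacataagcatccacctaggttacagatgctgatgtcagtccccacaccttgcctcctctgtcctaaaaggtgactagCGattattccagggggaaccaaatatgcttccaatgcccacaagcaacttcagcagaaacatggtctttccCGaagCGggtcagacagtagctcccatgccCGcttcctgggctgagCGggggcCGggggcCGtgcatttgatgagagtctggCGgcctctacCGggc
Gabra6: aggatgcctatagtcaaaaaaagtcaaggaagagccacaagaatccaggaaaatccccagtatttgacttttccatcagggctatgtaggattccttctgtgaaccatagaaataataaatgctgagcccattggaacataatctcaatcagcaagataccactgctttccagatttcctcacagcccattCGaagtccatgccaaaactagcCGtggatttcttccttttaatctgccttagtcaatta

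PHF2 peaks lay at the starts of 9 of the 34 receptor genes, Gria2, Gria4, Grik2, Grik4, Grin2a, Grin3a, Gabra2, Gabrg1 and Gabbr1. That is 26.5% of the members, against 29.1% of all protein-coding genes. A peak was counted at a start when it overlapped, by 1 bp or more, the 1 kb on either side of any start of a protein-coding transcript. PHF2 peaks are more frequent at CpG-rich starts, so the genes were also read by class of CpG observed/expected, the ratio of CpG dinucleotides present to those that the C and G content would give. With 10 classes over all genes, the shares of other genes with a peak in the members' own classes add up to 11.9 members, a ratio of 0.756 between the 9 found and that number. The share in members thus lay near the background, on the low side of it.

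The receptor classes differed in these counts, all of them small. Of the 3 AMPA receptor genes 2 had a peak, where their CpG classes give 0.783. The kainate receptor genes had 2 of 5, with 2.01 from their CpG classes, and the NMDA receptor genes 2 of 7, with 2.91. The GABA receptor genes had 3 of 11, with 3.91. None of the 7 metabotropic glutamate receptor genes had a peak, where their CpG classes give 1.94, and a count of 0 of 7 allows a share of up to 42.9%. Glra1, the alpha 1 subunit of the glycine receptor, had none either.

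**Figure D1:**
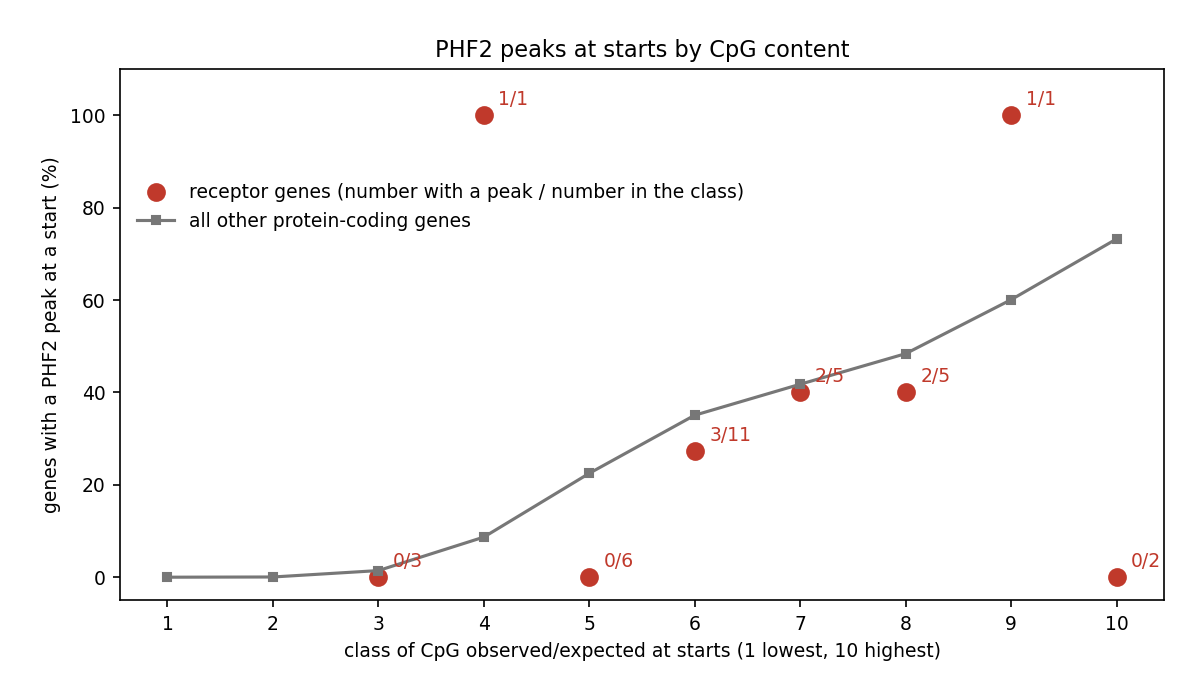
Share of genes with a PHF2 peak at a start (y axis, percent) by class of CpG observed/expected at their starts (x axis, 1 lowest to 10 highest), for receptor genes (red points, with the number that have a peak over the number in the class) and all other protein-coding genes (grey line). The grey line reaches 73.2% in class 10, where neither of the 2 receptor genes had a peak, and class 6, which holds 11 receptor genes, had 3 with a peak, against 35.1% of other genes.

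CpG content at the starts of the members ran from 0.216 observed/expected (Gabra6) to 0.821 (Grik3), with a median of 0.487, against 0.436 for other protein-coding genes with a body. The plot of peaks by CpG class shows that 11 members fell in class 6, 6 in class 5 and 5 in class 7, with 3, 0 and 2 peaks. The shares of other genes in these classes give 3.86, 1.35 and 2.09. Of the 8 members in the CpG-rich classes 8 to 10, 3 had a peak, Grin2a, Grin3a and Gabbr1, and 5 had none. For classes 8, 9 and 10 the shares of other genes give 2.42, 0.601 and 1.46 members with a peak, so several without one lie within the background.

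Gria2 had the strongest PHF2 peak among the members. It encodes GluA2, the AMPA subunit whose edited form keeps calcium out of the channel. Its peak (chr3:80800257-80803187) was 2931 bp long and had an authors' score of 797.68, rank 330 of the 5992 peaks, within the top 5.51% of the list. Its centre lay 1113 bp downstream of the start, so the peak reached past the start window into the gene. Gria4, which encodes the subunit GluA4, had a peak of 1680 bp with a score of 556.84 (chr9:4794997-4796676, rank 746). Gria1, which encodes GluA1, had no peak nearer than 505 kb, and its start is CpG-poor, at 0.219 observed/expected in class 3, where 1.43% of other genes have a peak.

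Among NMDA receptor genes, Grin3a had a peak of 1625 bp and a score of 337.15 (chr4:49844497-49846121), and Grin2a a peak of 890 bp and 130.69 (chr16:9994859-9995748). Grin3a encodes a glycine-binding subunit that lowers calcium flow through the channel, and Grin2a encodes the glutamate-binding subunit GluN2A. Grin1, the subunit that all NMDA receptors need, had no peak within 46.2 kb although its start falls in class 8 (0.585), where 48.4% of other genes have one. Grin2b, Grin2c, Grin2d and Grin3b also had none.

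Among GABA receptor genes, Gabra2 led with a peak of 1669 bp and a score of 311.77 (chr5:71094979-71096647), centred 36 bp from its start. It encodes the alpha 2 subunit of GABA-A receptors. Gabrg1, which encodes a gamma subunit, had a peak of 1168 bp with a score of 160.61 (chr5:70841801-70842968). Its start has the lowest CpG content of the 9 starts with a peak, 0.346 observed/expected, in class 4, where 8.68% of other genes have a peak. Gabbr1, which encodes the GABA-binding subunit of the GABA-B receptor, had a peak of 919 bp with a score of 108.65 (chr17:37045756-37046674).

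Both kainate peaks stood near the lowest score in the list, 100.02. Grik4, which encodes a high-affinity kainate subunit, had a peak of 885 bp with a score of 107.69 (chr9:42944020-42944904). Grik2, which encodes the pore-forming subunit GluK2, had a peak of 873 bp with 103.65 (chr10:49782783-49783655, rank 5874), at a start 5.51 kb downstream of its 5′-most start. No start of another protein-coding gene lay within 1 kb of any of the 9 starts.

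The median score of the 9 member peaks was 160.61, against 230.27 for all peaks at protein-coding starts, and 4 of the 9 lay above that median. The 4 lowest, Grin2a, Gabbr1, Grik4 and Grik2, scored at most 130.69, within the lowest 14.5% of peaks at starts. The median length of the 9 was 1168 bp, against 1309 bp. The centre lay downstream of the start in 7 of the 9, and upstream in Gabrg1 and Grin2a. In Grik4, Gabra2 and Grik2 the offset was only 31, 36 and 40 bp. The share of other start peaks with a downstream centre was not computed.

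**Figure D2:**
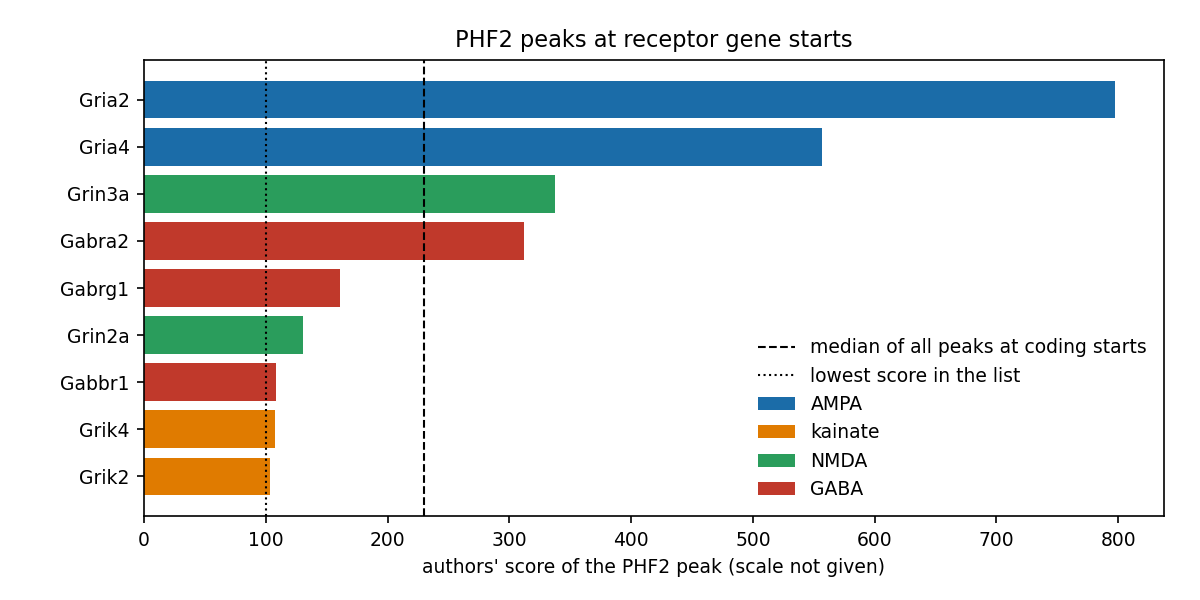
Authors' score of the PHF2 peak (x axis, scale not given) at the 9 receptor genes with a peak at a start, coloured by receptor class, with the median of all peaks at protein-coding starts (dashed line, 230.27) and the lowest score in the list (dotted line, 100.02). Gria2, Gria4, Grin3a and Gabra2 stand above the dashed line, and Gabbr1, Grik4 and Grik2 lie close to the dotted one.

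Grik2, Grik4, Grin2a and Gabbr1 have start windows in several places, and in each the peak lay at the window with the highest CpG content. In Grik2 that window had 0.532 observed/expected, against 0.452, 0.245 and 0.241 in the other 3. Grik4 had 0.686 at the window with the peak and 0.153 at the other, Grin2a 0.651 and 0.484, and Gabbr1 0.609 and 0.527. CpG content alone did not separate the members, since windows of Gabbr2 (0.798), Grm4 (0.762) and Grin2d (0.632) had no peak.

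The 5 CpG-rich members without a peak were spread over the classes. Grik3, which encodes the kainate subunit GluK3, stood at 0.821 in class 10, where 73.2% of other genes have a peak, and its nearest PHF2 peak was 405 kb away. Its start sequence above holds 42 CpGs in 250 bases. Gabra5, the alpha 5 subunit known from extrasynaptic receptors of the hippocampus, stood at 0.740 in the same class, with its nearest peak at 80.7 kb. Class 8 held Grin1 (0.585), Gabbr2 (0.574), the other subunit of the GABA-B receptor, and Grm6 (0.569), the receptor known from ON bipolar cells of the retina. The nearest peak was 64.7 kb from Gabbr2 and 412 kb from Grm6.

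The median distance to the nearest PHF2 peak over the 25 members without one was 204 kb. Peaks lay within 50 kb in 4 of them, at 4.74 kb from Grik5, 9.93 kb from Grin3b, 34.9 kb from Grm4 and 46.2 kb from Grin1. In 11 the nearest peak was farther than 400 kb, and Grm7, a presynaptic group III receptor, was the farthest at 1451 kb. These distances were not computed for other genes without a peak, so whether they are unusual is not known. Away from starts no member had a PHF2 peak. The 2 peaks that reached into gene bodies were the ends of the start peaks of Gria2 and Grin3a, and 0 peaks in 8.68 Mb allow up to 0.346 per Mb. Of all protein-coding genes with a body, 272 (1.3%) had a PHF2 peak away from starts.

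The letters GGGCGG, the GC box that SP1 binds, were sought on both strands from 250 bases before to 50 after the 5′-most start. They occurred in 19 of 34 receptor promoters (55.9%), against 44.1% of other promoters. Among members with a PHF2 peak they occurred in 3 of 9 (Grik4, Gabra2 and Gabbr1), against 66.2% of other promoters with a peak. Peaks were counted at any start, and that of Grik2, at a start 5.51 kb downstream, lay outside the stretch searched. Among members without a peak they occurred in 16 of 25, against 35.1% of other promoters without one. The CRE letters TGACGTCA and the NRF1 letters, a longer palindrome, occurred in none of the 34, which allows up to 8.82%, against 2.48% and 1.23% of other promoters. These shares were not matched for CpG or GC content, and a match is a description of the letters in this window.

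H3K9me2 was called at a start of 1 of the 34 members, Grik2, against 2.3% of all protein-coding genes, and the members' CpG classes give 0.642. The region lay 147 bp from the start in the last of the gene's 4 start windows, 516 kb downstream of the 5′-most start. That window has a CpG observed/expected of 0.241, and the PHF2 peak of Grik2 lay at another window, so both targets marked the gene at different starts. The region (chr10:49272622-49272694, mm10, minus strand) has 73 bases, the minimum length in the list, and no CpG.
Grik2 start region: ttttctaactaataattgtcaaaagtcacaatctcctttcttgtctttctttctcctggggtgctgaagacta

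H3K9me2 regions were frequent inside the receptor genes. The gene bodies, taken without the start windows, held 153 regions in 8.68 Mb, or 17.6 per Mb (exact Poisson 95% interval 14.95 to 20.7), against 13.3 per Mb (13.1 to 13.5) in all other protein-coding genes. A region lay in the body of 23 of the 34 members, against 24.2% of all protein-coding genes with a body. Many of these receptor genes are long, and among bodies of 100 kb or more the share was 19 of 20, against 85.6% of all such genes. By density, members with such bodies had 17.9 regions per Mb (15.1 to 21.1), an interval that includes the 15.4 of other bodies of 100 kb or more. H3K9me2 regions are sparser in GC-rich genes, and at the densities of other genes in the same 10 classes of body GC content the member bodies would hold 121.9 regions. The ratio was 1.26 (1.06 to 1.47). With 10 classes of body length in place of GC content it was 1.16, for which no interval was computed, so an excess over genes of like length is not shown. Flanks of the same lengths held 258 regions in 17.5 Mb, or 14.7 per Mb.

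By class, the AMPA and NMDA receptor genes stood above the numbers from their GC classes. The 3 AMPA receptor genes held 26 regions in 0.813 Mb, 32.0 per Mb (20.9 to 46.8), which was 2.28 times (1.49 to 3.34) the number from their GC classes. The 7 NMDA receptor genes held 30 regions in 1.15 Mb, 26.1 per Mb (17.6 to 37.2), or 1.93 times (1.30 to 2.76). Kainate receptor genes had 12.3 per Mb (7.72 to 18.7) and a ratio of 1.00 (0.630 to 1.52). Metabotropic glutamate receptor genes had 14.2 per Mb (10.0 to 19.5) and 0.925 (0.655 to 1.27), and GABA receptor genes 15.3 per Mb (10.5 to 21.5) and 1.07 (0.737 to 1.504). The difference between the classes was not tested.

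**Figure D3:**
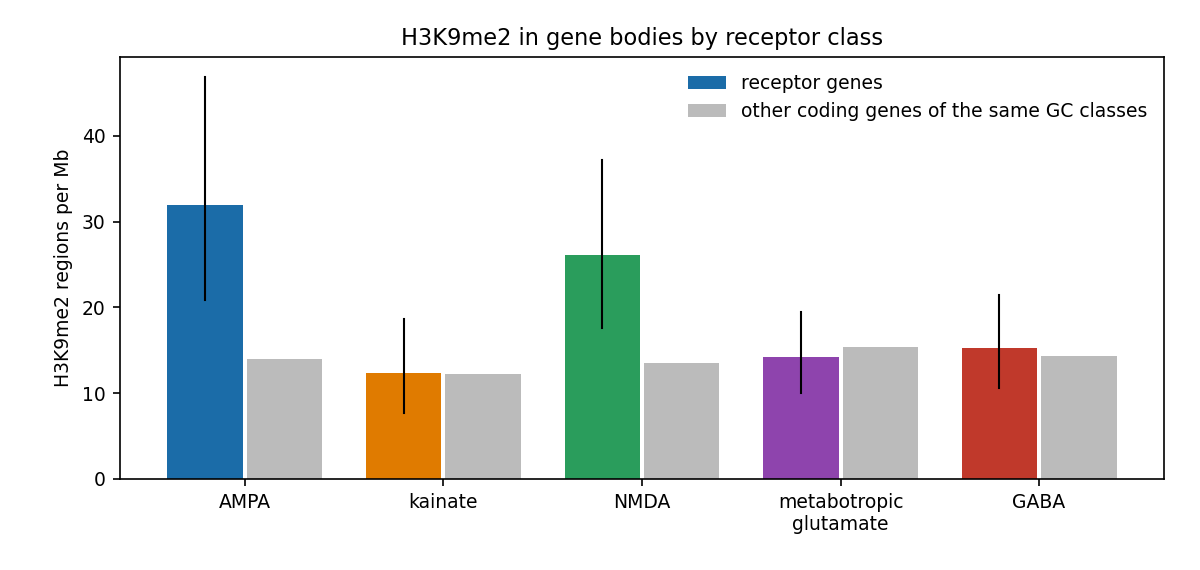
H3K9me2 regions per Mb of gene body (y axis) in 5 receptor classes (coloured bars, with exact Poisson 95% intervals as black lines) and the density that other protein-coding genes of the same body GC classes give (grey bars). The intervals of the AMPA and NMDA receptor genes lie above their grey bars, and those of the other 3 classes include theirs.

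Of the 153 regions, 54 lay within 10 kb of the next region and 12 within 1 kb, a spacing that was not compared with that in other genes. With regions within 10 kb counted once, the ratio was 1.74 (1.02 to 2.79) for AMPA and 1.66 (1.04 to 2.51) for NMDA receptor genes. Against flanks of the same lengths, with 15.3 regions per Mb for AMPA and 13.2 for NMDA receptor genes, the ratios were 2.09 and 1.97. The AMPA ratio was 1.98 (1.19 to 3.09) without Gria2, 2.29 (1.33 to 3.67) without Gria1 and 2.77 (1.59 to 4.51) without Gria4. The NMDA ratio was 1.75 without Grin2b, with an interval from 0.998 to 2.84 that reaches 1, and 1.83 to 2.13 without any other NMDA receptor gene.

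Gria2 had the highest density among the members, with 7 regions in 120 kb, or 58.1 per Mb (23.4 to 120). Of 2356 other gene bodies of 100 kb or more, 0.127% had a density as high. The next among bodies over 50 kb were Glra1 with 4 regions and 43.2 per Mb (11.8 to 111), Grin2b with 14 and 30.6 (16.7 to 51.3), and Gria1 with 9 and 28.5 (13.02 to 54.0). Gria2 thus carried both the strongest PHF2 start peak and the densest H3K9me2 body of the 34 genes.

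In Gria2, 5 of the 7 regions lay in intron 2 of the main transcript, between 17.8 and 31.5 kb from the start, and another of 187 bp, the longest region in any member body, touched an exon. The 5 sequences follow, on mm10, read 5′ to 3′ on the gene's minus strand with CpG dinucleotides in capitals. They show how short the marked stretches are, at 73 to 110 bp, and hold 2 CpGs in all. The PHF2 peak of the same gene holds 115 CpGs in 2931 bp, a far longer stretch, so the 2 counts are not on 1 scale. CpG content in the rest of the intron was not compared. The 5 sequences are chr3:80771334-80771406, chr3:80773635-80773707, chr3:80774168-80774240, chr3:80781015-80781094 and chr3:80784967-80785076, in this order.
Gria2 region a: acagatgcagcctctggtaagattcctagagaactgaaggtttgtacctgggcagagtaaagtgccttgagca
Gria2 region b: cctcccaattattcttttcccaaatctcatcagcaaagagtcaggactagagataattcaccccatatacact
Gria2 region c: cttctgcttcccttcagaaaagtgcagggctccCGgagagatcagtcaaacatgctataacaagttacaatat
Gria2 region d: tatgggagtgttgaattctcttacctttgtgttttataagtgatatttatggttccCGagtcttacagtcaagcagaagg
Gria2 region e: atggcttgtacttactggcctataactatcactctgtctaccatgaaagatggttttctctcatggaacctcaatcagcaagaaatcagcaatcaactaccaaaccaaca

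By number, Gabrg3, which encodes a gamma subunit of GABA-A receptors, came first with 15 regions (22.4 per Mb). Grin2b, which encodes GluN2B, the subunit of early development, held 14. Grik2 and Grm7 held 13 each (18.9 and 14.2 per Mb), and Grin2a and Grm8 11 each (26.0 and 12.9 per Mb). Gria4 held 10 (26.6 per Mb), and Gria1, Grm5, a group I receptor, and Gabrb1, a beta subunit of GABA-A receptors, held 9 each (28.5, 16.4 and 18.4 per Mb). Intervals of single genes were wide, as for Gabrg3 (12.54 to 37.0), and those of neighbours in this order overlapped.

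**Figure D4:**
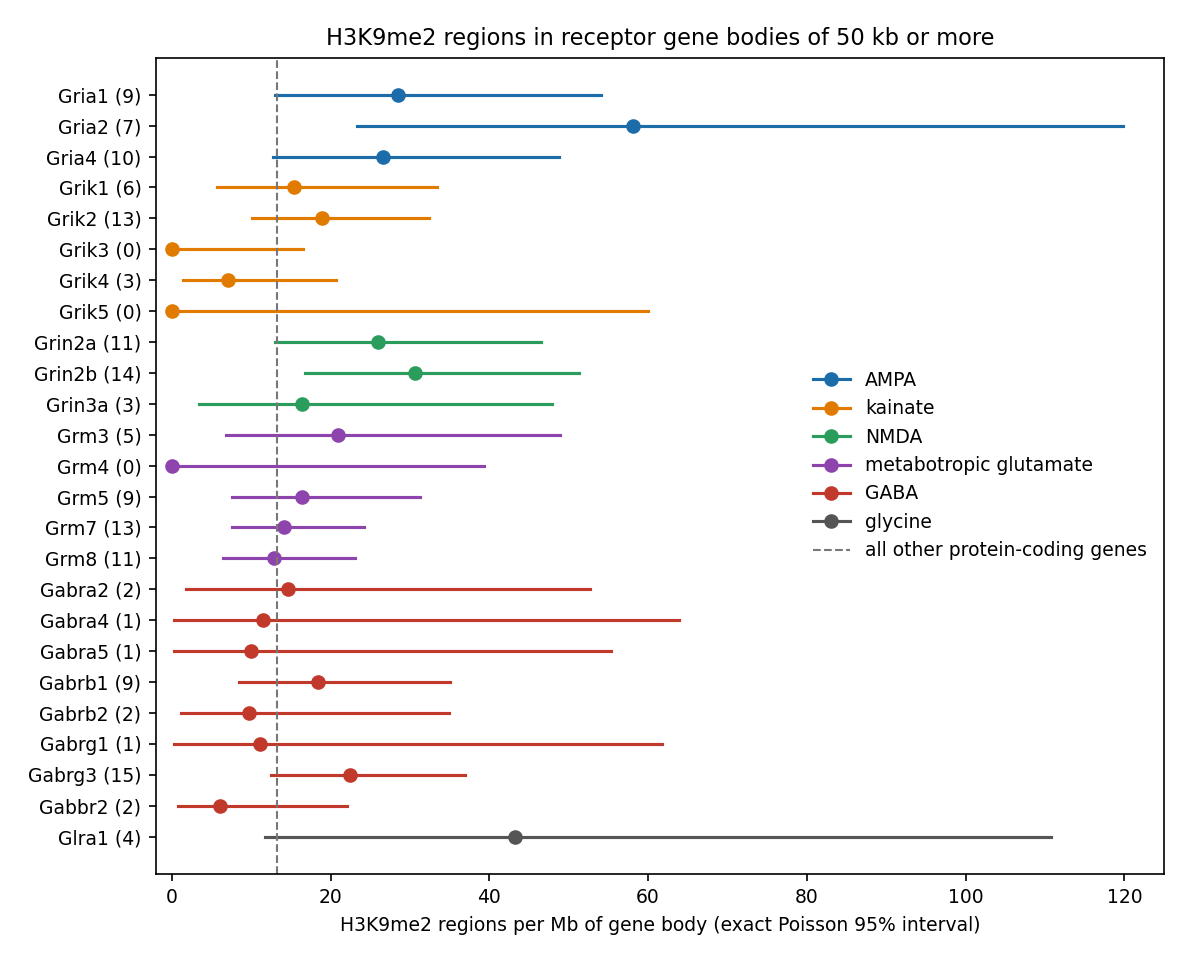
H3K9me2 regions per Mb of gene body (x axis, points, with exact Poisson 95% intervals as lines) in the 25 receptor genes with a body of 50 kb or more, coloured by class, with the number of regions after each name and the density of all other protein-coding genes (dashed line, 13.3). The intervals of Gria2 and Grin2b lie above the dashed line, and Grik3, Grik5 and Grm4 have no region.

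Members without any body region were mostly short. Among bodies over 50 kb, 3 had none. With a count of 0 read as up to 3, the 222 kb of Grik3 allow up to 13.5 per Mb. On the same reading the 61.4 kb of Grik5 allow up to 48.8 and the 93.7 kb of Grm4 up to 32.0. The exact Poisson intervals plotted for these genes reach higher, to 16.6, 60.0 and 39.4. Grik5 encodes a high-affinity kainate subunit, and Grm4 a group III metabotropic receptor. These 3 bodies are GC-rich, at 50.2%, 51.4% and 54.2%, in the 2 highest of the 10 GC classes, where other genes have 5.22 and 4.00 regions per Mb. The other 8 were Grin1, Grin2c, Grin3b, Grm2, Grm6, Gabra6, Gabrd and Gabbr1, with bodies of 2.80 to 26.9 kb. Grin1 encodes the obligate NMDA subunit, Gabra6 a subunit known from cerebellar granule cells and Gabrd an extrasynaptic subunit.

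The regions lay almost all in introns. In the member bodies 2 of 153 touched an exon of any transcript, in Gria2 and Gabrb1, while exons made up 2.73% of the body bases. A total of 10 lay within 10 kb of a start of their gene, in 0.474 Mb of body. First introns of the main transcripts held 23 regions (15.03%) and made up 13.4% of the bodies. In Grm7, 9 of 13 regions lay in intron 1, which makes up 29.1% of its body, and in Grm3, a group II receptor, all 5 did, in 56.1% of its body. These 2 genes were singled out after their values were seen.

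**Figure D5:**
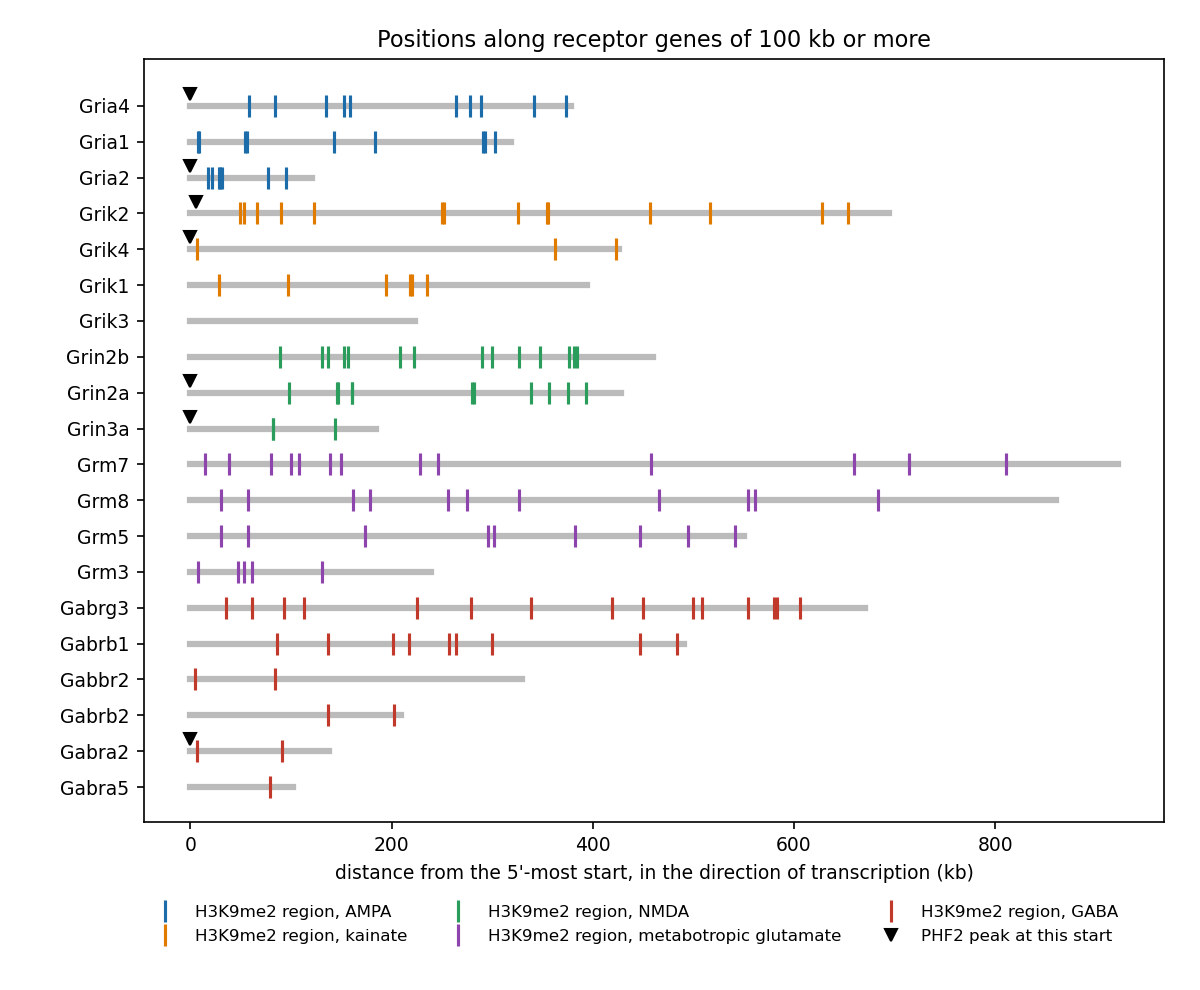
Positions of H3K9me2 regions (coloured ticks) and of starts with a PHF2 peak (black triangles) along the 20 receptor genes of 100 kb or more (grey bars), as distance from the 5′-most start in the direction of transcription (x axis, kb). Regions crowd between 17.8 and 31.5 kb from the start of Gria2 and in the first part of Grm7, and Grik3 has none.

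In their own properties the member regions were close to those in other gene bodies. Their median length was 73 bp in both, and 54.9% of the member regions had this minimum length, against 56.2% in other genes. No CpG occurred in 62.1% of the member regions, against 54.9%, and the median GC content was 41.9%, against 43.3%. Repeats covered at least 50% of the bases in 13.1% of the member regions, against 14.8%, and 77 of the 153 held no repeat base.

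A body region was present in 8 of the 9 members with PHF2 at a start and in 15 of the 25 without. Of the 9, 7 have bodies of 100 kb or more, a length at which 85.6% of all protein-coding genes hold a region. The 9 members with a PHF2 start peak held 50 regions in 2.47 Mb, or 20.3 per Mb (15.05 to 26.7), against 103 regions in 6.21 Mb, or 16.6 per Mb (13.5 to 20.1), in the 25 without one. The intervals overlap. Of the 9, Gabbr1 was the gene with no body region, and Gria2, Gria4 and Grin2a had 58.1, 26.6 and 26.0 regions per Mb.

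GABA-A receptor genes lie in clusters, and 8 of the members fall in 3 of them. The cluster of Gabrg1, Gabra2, Gabra4 and Gabrb1 (chr5:70751047-72149037) held 2 PHF2 peaks, those of Gabra2 and Gabrg1, and 21 H3K9me2 regions, or 15.02 per Mb (9.30 to 22.96), 8 of them between genes. Gabra4 and Gabrb1 lie on opposite strands and overlap at their 5′ ends, with 132 bp between the nearest of their starts. The start windows there overlap and had no PHF2 peak. The cluster of Gabrg3 and Gabra5 (chr7:56716465-57510059) held 16 regions, or 20.2 per Mb (11.5 to 32.7), and no PHF2 peak. The cluster of Gabra6 and Gabrb2 (chr11:42306437-42629028) held 2 regions, or 6.20 per Mb (0.751 to 22.4), and no PHF2 peak.

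Genes that serve these receptors were read from further lists. Of 25 genes for scaffold and auxiliary proteins of glutamate receptors, 10 had a PHF2 peak at a start, where their CpG classes give 8.06, led by Neto1 (653.02) and Neto2 (520.9), which are auxiliary subunits of kainate receptors, Grip1 (561.51), a scaffold of AMPA receptors, and Dlgap4 (411.68), a postsynaptic scaffold. Their bodies held 15.4 H3K9me2 regions per Mb (12.4 to 18.9). Of 10 such genes for GABA receptors, 2 had a peak, with 4.26 from the CpG classes, Gphn (571.16), the inhibitory scaffold gephyrin, and Kctd12 (527.05), an auxiliary subunit of GABA-B receptors. Of 18 genes for transmitter synthesis and transport, 6 had a peak, with 6.81 from the CpG classes. H3K9me2 density was 16.4 per Mb (9.88 to 25.6) in the GABA receptor scaffold list and 17.4 per Mb (10.2 to 27.9) in the synthesis and transport list, close to the 17.6 per Mb of the receptor genes.

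The highest scores in these lists belonged to Slc1a3 (1434.89), a glutamate transporter of radial glia and astrocytes, and Glul (1140.59), glutamine synthetase. Slc38a1 (360.58), a glutamine transporter, also had a peak. Slc1a2, the main astrocyte glutamate transporter, had both a PHF2 peak (121.72) and an H3K9me2 region at a start. The scores of Slc1a3, Glul and Slc38a1 exceed those of 7 of the 9 receptor genes, and those of Slc1a3 and Glul exceed that of Gria2. Of 28 genes of other ligand-gated channels, 3 had a peak, with 4.95 from the CpG classes, Glrb (184.23), P2rx3 (143.41) and P2rx4 (107.33). Glrb encodes the beta subunit of the glycine receptor, and the P2rx genes encode ATP-gated channels. Chrna5, a nicotinic acetylcholine receptor subunit, had an H3K9me2 region at a start. The bodies of these 28 genes held 7 H3K9me2 regions, or 7.07 per Mb (2.84 to 14.6), the lowest density of the 4 lists.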

How the data were processed

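The samples, their labels and the mm10 build are GEO's, and Bowtie2 is named in the submitters' processing notes. Per the file headers, MACS run in Galaxy gave the PHF2 peaks, and the H3K9me2 caller is not given in the sources used here. Each PHF2 peak has a score from the authors, deposited on a scale that is not given and used here to describe and rank peaks within that list. The deposited H3K9me2 list gives positions, and its score column holds 0 throughout. The 60 H3K9me2 regions on scaffolds were left out. From there, starts of protein-coding transcripts were taken from GENCODE M21 and windows of 1 kb on either side were pooled per gene. Gene bodies were spans without these windows, and regions per Mb used bases outside assembly gaps. A main transcript was the principal one in the annotation, the longest where several were. Intervals are exact Poisson at 95%, and a count of 0 allows up to 3. No test was made. The members, gene lists and named-gene rule were chosen with earlier results of these data known, and 1 gene that the rule names is not reported here. The counting steps were tested on simulated peaks planted at 200 genes. Promoter sequences are from RefSeq (GRCm38.p6), which matched 25 of 34 members. Python 3.11.15, numpy 2.4.6, scipy 1.17.1 and pysam 0.24.0 were used. Alternatives were other windows, starts, score limits, overlap rules, CpG, GC and length classes, body definitions and flanks.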

Additional observations from a re-analysis of the deposited data

How the results depend on the processing

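No paired analysis was possible because each target had 1 sample and no result came from a test. Depth is unknown, so peaks missed for want of reads cannot be counted. Of the values under alternatives, 45 stayed within the limits set for no change, 7 moved beyond them and 1 reversed. These limits were wide, since a fall of PHF2 peaks per Mb from 0.231 to 0.115 counted as no change. The number of members with a PHF2 peak was 8 to 10 with other windows, starts and overlap rules, 4 with peaks above the median score of the list (Gria2, Gria4, Grin3a and Gabra2) and 1 with the highest-scoring 10% (Gria2). The ratio to the CpG classes stayed between 0.686 and 0.842, except that it turned to 1.05 with the highest-scoring 10%, where it rests on Gria2 alone. Members with H3K9me2 at a start numbered 2 with 2 kb on either side (Grik1 and Grik2), 4 with 5 kb (Grin2d and Gabbr2 added) and 0 with the 5′-most start alone, which drops Grik2's later start. With regions longer than the minimum length alone, H3K9me2 density was 7.95 per Mb, since 84 of 153 regions have that length, and its ratio to the GC classes 1.29. PHF2 peaks per Mb were 0.231 in bodies, 1.03 over whole gene spans, which take in the starts, and 0.115 with the highest-scoring 10%, which leaves 1 peak of 2. The H3K9me2 ratio was 1.16 to 1.31 in every alternative run. Starts of every transcript type, the 5′-most start with its own CpG classes, and all alternatives for AMPA (ratios 1.74 to 2.77, the highest without Gria4) and NMDA receptor genes (1.66 to 2.18) were chosen after seeing the data.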
